A study of Mus musculus with 48 samples.

Results

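The genes described here are 32 genes that make sterols and fatty acids, measured in mouse kidney. They were listed by symbol for their function, and earlier results of these data were known when the list was made. Each was represented by 1 probe set, the brightest kept one on either of 2 array types (430A and 430B). Of the 32, 31 passed a filter on dim probe sets and were tested, among 12833 genes and 18633 features tested in all.

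The mevalonate pathway builds isoprenoid units from acetyl-CoA, joins them into squalene, closes the ring to lanosterol and then removes methyl groups and shifts double bonds to reach cholesterol. Fatty acid synthesis starts from the same acetyl-CoA, extends it to palmitate with NADPH, and passes the product to elongases, desaturases and glycerolipid assembly. Both branches are controlled by SREBP transcription factors, which INSIG proteins hold in the endoplasmic reticulum when sterols are plentiful. In kidney the proximal tubule burns fatty acids for energy and also takes up and makes lipid.

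Hyp is a loss-of-function allele of Phex, a gene of the X chromosome, and serves as a model of X-linked hypophosphatemia, in which the kidney loses phosphate. The series crossed 3 factors with 2 levels each in mice aged 10 weeks: genotype, diet and sex. Hyp males were hemizygous (Hyp/Y) and Hyp females heterozygous (Hyp/+), and the normal mice were their littermates. A sex difference within Hyp therefore cannot be told apart from a difference between hemizygous and heterozygous mice. The same holds for a genotype by sex difference. A label names C57BL/6J. The control or the low phosphorus diet was given for 3 days, with deionized water to all mice, so that the 8 groups were normal or Hyp, male or female, on the control or the low phosphate diet. RNA of 72 mice was combined into 24 pools of 3 mice, 3 pools a group, and each pool was hybridised to both arrays. Because the samples are pools, the p-values refer to the spread between pools and not between single mice.

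The values are signal intensities on a linear scale, and differences are given on the log2 scale with their standard error (SE). The test was limma's moderated test with Benjamini-Hochberg adjustment over all 18633 features, at an adjusted p of 0.05. In whole kidney, fewer cells of a type and less RNA per cell cannot be told apart. The sexes matched their labels: Xist signals were 1458 to 2011 in the 12 female pools and 62.1 to 180.3 in the 12 male pools. The kidney genes Slc34a1, the phosphate transporter of the proximal tubule, and Umod, made by the thick limb, had signals of at least 9785 and 18730.4 in every pool. Phex itself was dim in every pool (2.8 to 49.8) and checked nothing.

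Most of these genes carry in their promoters the pentamer CCAAT, which binds the factor NF-Y, a partner of SREBP. RefSeq promoters (build GRCm38.p6, 250 bases before to 50 after the start, 300 bases in all) were matched for 26 of the 32 genes; Scd1, Scd2, Fads1, Fdps, Fdft1 and Sqle had no entry. CCAAT was found on either strand in 22 of the 26 (84.6%), against 42.2% of the promoters of 10333 tested genes and 41.1% of those of 27025 genes. The GC box GGGCGG was present in 76.9% of the 26 and 64.9% of tested genes, and the E-box CACGTG in 19.2% and 11.4%. A core sterol regulatory element, written TCACNCCAC, was present in Hmgcs1 alone of the 26 (3.85%), against 1.42% of tested genes. Motifs were searched on both strands and counted whether or not they overlapped. A match describes these letters in this window and is not a binding site.

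Promoters are shown for 5 of these genes: Hmgcs1 and Idi1 of the isoprenoid steps, which differed between the sexes, and Msmo1, Nsdhl and Ebp of the late sterol steps, which differed between the diets. Capitals mark CCAAT, read on either strand, and, in Hmgcs1, the sterol regulatory element core. The sequences run 5′ to 3′ on the gene's strand and lie at chr13:119690101-119690400 (plus strand) for Hmgcs1, chr13:8885356-8885655 (plus) for Idi1, chr8:64733529-64733828 (minus) for Msmo1, chrX:72918271-72918570 (plus) for Nsdhl and chrX:8193463-8193762 (minus) for Ebp. Hmgcs1 and Nsdhl each hold 4 copies of CCAAT, Msmo1 holds 3, and Idi1 and Ebp hold 2. Nsdhl and Ebp lie on the X chromosome, as does Phex.
Hmgcs1: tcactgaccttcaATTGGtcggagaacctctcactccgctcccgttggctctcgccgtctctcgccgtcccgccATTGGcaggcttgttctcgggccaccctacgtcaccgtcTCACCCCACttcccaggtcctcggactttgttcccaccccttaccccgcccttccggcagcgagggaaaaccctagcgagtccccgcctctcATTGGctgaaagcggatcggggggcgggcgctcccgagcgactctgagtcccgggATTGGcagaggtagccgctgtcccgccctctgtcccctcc
Idi1: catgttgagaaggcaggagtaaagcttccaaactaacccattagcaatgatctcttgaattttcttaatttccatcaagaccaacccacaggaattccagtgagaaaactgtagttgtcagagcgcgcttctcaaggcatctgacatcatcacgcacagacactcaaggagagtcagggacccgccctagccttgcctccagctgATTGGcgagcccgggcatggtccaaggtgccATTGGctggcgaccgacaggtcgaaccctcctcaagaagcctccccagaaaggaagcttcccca
Msmo1: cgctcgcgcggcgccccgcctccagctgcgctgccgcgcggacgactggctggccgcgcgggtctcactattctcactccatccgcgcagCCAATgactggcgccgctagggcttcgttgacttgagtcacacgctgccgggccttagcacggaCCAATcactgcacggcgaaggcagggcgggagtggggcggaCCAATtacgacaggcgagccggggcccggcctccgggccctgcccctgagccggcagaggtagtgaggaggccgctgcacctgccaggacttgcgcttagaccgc
Nsdhl: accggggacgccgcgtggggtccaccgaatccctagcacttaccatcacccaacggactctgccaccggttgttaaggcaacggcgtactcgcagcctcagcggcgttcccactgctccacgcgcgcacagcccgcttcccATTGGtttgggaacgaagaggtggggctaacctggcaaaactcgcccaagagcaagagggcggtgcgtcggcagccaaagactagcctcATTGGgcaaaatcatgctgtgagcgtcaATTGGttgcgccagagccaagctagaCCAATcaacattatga
Ebp: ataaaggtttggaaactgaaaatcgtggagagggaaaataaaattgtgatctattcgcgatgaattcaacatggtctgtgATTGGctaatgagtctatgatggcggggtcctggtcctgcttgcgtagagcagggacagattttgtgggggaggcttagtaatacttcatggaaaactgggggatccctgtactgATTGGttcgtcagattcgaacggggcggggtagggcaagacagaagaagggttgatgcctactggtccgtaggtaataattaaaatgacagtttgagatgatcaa

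Sex was the factor with the largest differences. Of the 31 genes, 9 were higher in males (29%) and 5 were lower (16.1%), while 6.08% of all features tested were higher in males and 9.87% lower. The genes higher in males lay mostly in the isoprenoid steps and in the supply of substrates and NADPH, and those lower in males mostly among elongases and desaturases. The median difference over the 31 genes was 0.01, against -0.05 over all features. The split depends on the scaling of the arrays: with each array shifted to a common median, 1675 features were higher and 970 lower in males in place of 1133 and 1839, and 12 and 3 of the 31 genes in place of 9 and 5.

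**Figure D1:**
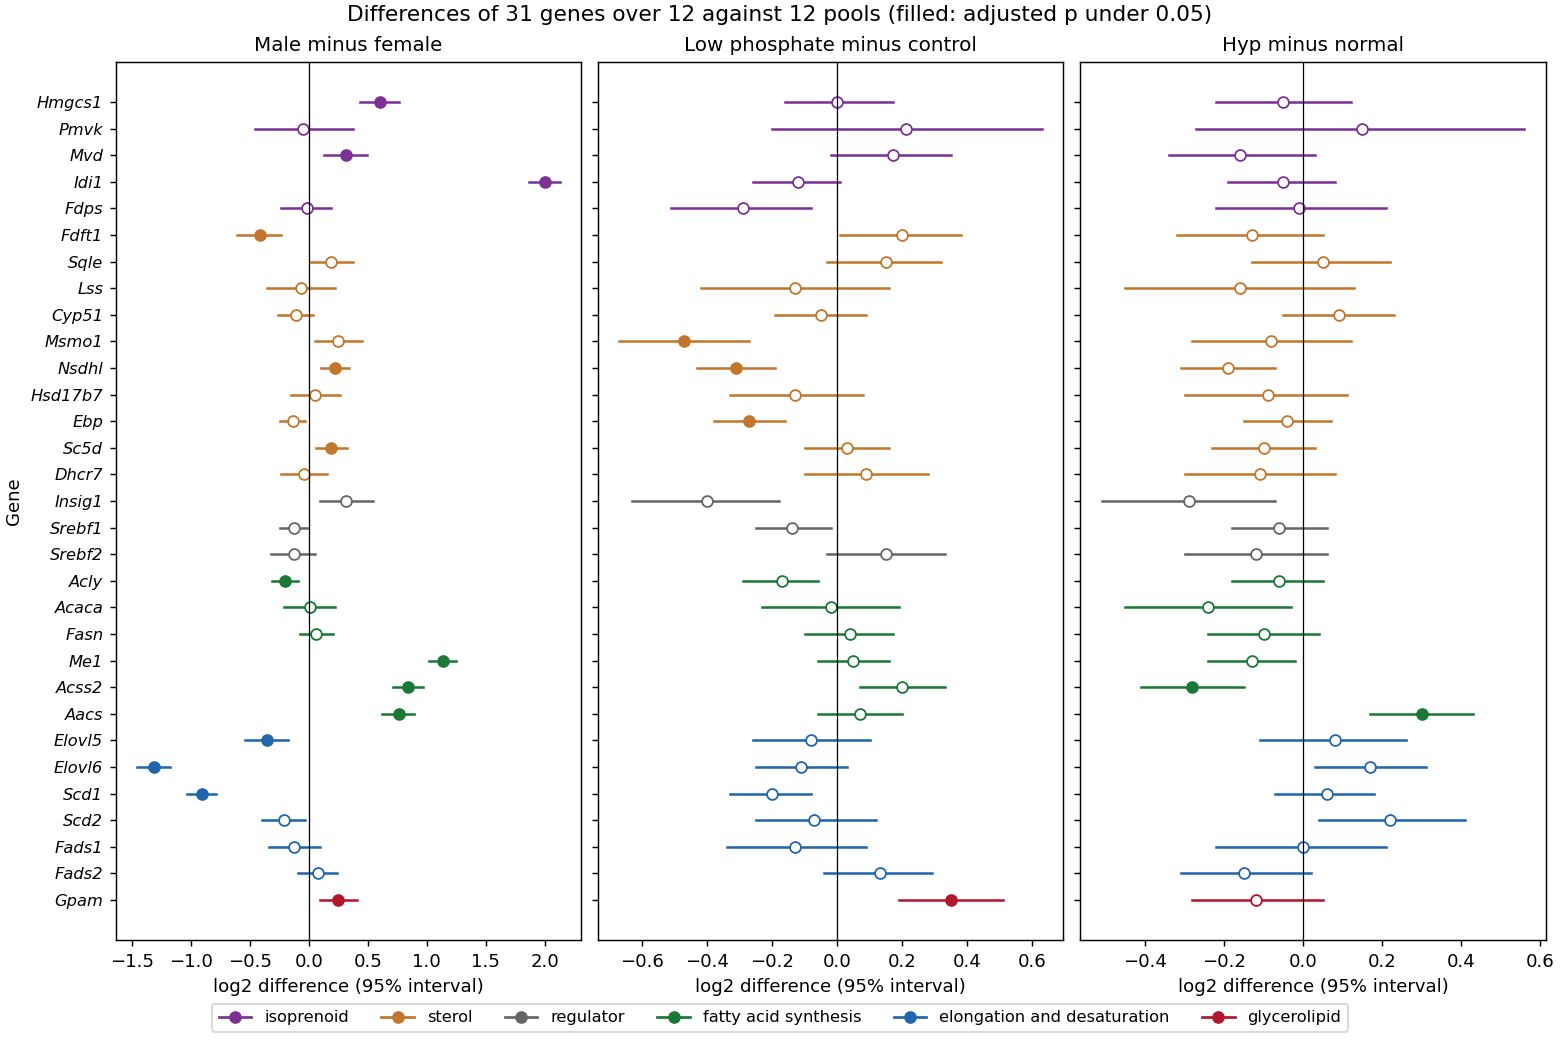
Log2 differences (x axes) of the 31 tested genes (y axis, in pathway order) for sex, diet and genotype, 12 against 12 pools, with 95% intervals as lines and filled points for an adjusted p under 0.05. Idi1 stands at 2.00 in the sex panel, where 14 genes are filled; 4 are filled for diet and 2 for genotype, and the 3 x axes differ in scale.

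Among the isoprenoid steps, Idi1, the isomerase that makes dimethylallyl diphosphate, differed most. Its signal was 284 at the lowest, 395 at the median and 466 at the highest over the 12 female pools, and 1272, 1572 and 1796 over the 12 male pools, so the sexes did not overlap. The difference was 2.00 ± 0.06 (SE), or 4-fold (limma adjusted p = 1.57e-15), and a second, dimmer probe set gave 2.06 ± 0.09. It was 1.71 in normal mice on the control diet, 1.95 in normal mice on the low phosphate diet, and 2.13 and 2.20 in Hyp mice on those diets. Hmgcs1, the synthase at the head of the pathway, had signals of 5109.8, 5769.6 and 7847 in females and 7550.2, 9658 and 10375 in males as lowest, median and highest. The sexes overlapped slightly, and the difference was 0.60 ± 0.08 (limma adjusted p = 1.36e-05); 3 other bright probe sets gave 0.57, 0.55 and 0.45. Mvd, the decarboxylase just before Idi1, ran from 258 to 479.8 in females and from 316 to 543 in males and was higher by 0.31 ± 0.09 (limma adjusted p = 0.0195), with 0.17 in its second probe set. With the mean of its kept probe sets Mvd missed the threshold (adjusted p = 0.063). Pmvk (-0.05, 95% interval -0.46 to 0.37) and Fdps, which makes farnesyl diphosphate (-0.02, -0.24 to 0.19), did not pass. Mvk, the kinase, was too dim to be tested, with signals of 43.3 to 256 and above the array median on 2 of 24 arrays.

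Of the 10 genes from squalene to cholesterol, 2 were higher and 1 was lower in males, and their median difference was 0.00. Fdft1, squalene synthase, was lower in males, with 242, 338 and 437 as lowest, median and highest in males and 340.0, 438 and 643 in females. The ranges overlapped, the difference was -0.42 ± 0.09 (limma adjusted p = 0.00169), and a second probe set of similar signal gave -0.14 and did not pass. Nsdhl, a dehydrogenase of C4 demethylation, was higher in males by 0.22 ± 0.06 (limma adjusted p = 0.0116), with ranges of 1285 to 2033 in males and 1109.9 to 1804 in females. Sc5d, the sterol desaturase, was higher by 0.19 ± 0.06 (limma adjusted p = 0.0453) but missed the threshold without any 1 of 17 of the 24 pools (adjusted p up to 0.086). The other 7 did not pass: Msmo1 gave 0.25, Sqle (squalene epoxidase) 0.19, Ebp -0.14, and Lss, Cyp51, Hsd17b7 and Dhcr7 lay between -0.11 and 0.05. With the arrays shifted to a common median Msmo1 and Sqle passed as higher in males, Msmo1 also passed without 1 of the Hyp male control pools, and Ebp passed as lower in 3 of 33 alternative settings.

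Of the 3 regulators none passed for sex over all pools. Insig1 gave 0.31 ± 0.11 (limma adjusted p = 0.0547) and passed in 8 of 33 alternative settings. On the control diet alone it was higher in males by 0.58 ± 0.15 (limma adjusted p = 0.0218), where 3.67% of all features were higher, and on the low phosphate diet it gave 0.05. Insig1 did not pass the diet by sex test. Splits of the sex difference by diet or genotype were not among the planned comparisons. They are given here because a regulator was called in them. Srebf1 and Srebf2, the SREBP genes themselves, both gave -0.13. In Hyp pools Srebf1 was lower in males (-0.32 ± 0.08, limma adjusted p = 0.0142), where 3.33% of all features were lower, and in normal pools it gave 0.06. The test of that difference gave -0.38 ± 0.11 (limma adjusted p = 0.49). Among these Hyp pools, those on the low phosphate diet gave -0.57 ± 0.11 for Srebf1 (limma adjusted p = 0.00451), where 1.74% of features were lower. Those on the control diet gave -0.08. The genotype by diet by sex test, by limma, called none of the 31 genes and no feature at all.

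Among the genes of fatty acid synthesis, 3 that supply its substrates were higher in males without overlap. Me1, malic enzyme, a source of NADPH, had signals of 2273.5, 2718 and 3194 in females and 5324, 5979 and 6596 in males as lowest, median and highest. Every male pool was above every female pool, and the difference was 1.14 ± 0.05 (2.20-fold, limma adjusted p = 1.22e-12), with 1.17 in a second probe set. Acss2, which makes acetyl-CoA from acetate, ran from 1591 to 3021.5 in females and from 3135 to 4848 in males, a difference of 0.84 ± 0.06 (1.79-fold, limma adjusted p = 2.55e-09) with 0.92 in a second probe set. Aacs, which activates acetoacetate, ran from 608 to 925 in females and from 992 to 1583 in males, a difference of 0.76 ± 0.06 (1.69-fold, limma adjusted p = 1.70e-08), and its second probe set also gave 0.76. Acly, which makes acetyl-CoA from citrate, was lower in males by 0.20 on the log2 scale (-0.20 ± 0.05, limma adjusted p = 0.0147), and this call was lost with arrays shifted to a common median (-0.10, adjusted p = 0.301). The genes of the synthesis steps proper did not pass: Acaca, acetyl-CoA carboxylase, gave 0.01 (95% interval -0.21 to 0.22) and Fasn, fatty acid synthase, 0.06 (-0.08 to 0.20).

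Of the 6 elongases and desaturases, 3 were lower in males and none higher. Elovl6, which extends palmitate, had signals of 839.8, 934 and 1114 in females and 266.5, 380.5 and 499.5 in males as lowest, median and highest. The sexes did not overlap, and the difference was -1.32 ± 0.07, 2.50-fold lower in males (limma adjusted p = 3.49e-12); a second probe set gave -1.47, and a dim one on the 430B array -0.27. Scd1, the stearoyl-CoA desaturase, had signals of 3184, 4340.0 and 5129 in females and 1878.5, 2204 and 2851 in males, again without overlap. It was 1.89-fold lower in males (-0.91 ± 0.06, limma adjusted p = 2.43e-10), with -0.99 in its second probe set. Elovl5, an elongase of polyunsaturated chains, was lower by -0.36 ± 0.09 (limma adjusted p = 0.00591), with ranges of 1018 to 1549 in males and 1139.7 to 2047 in females. Its second probe set gave -0.14, and with arrays shifted to a common median it missed the threshold (adjusted p = 0.0512). Scd2 (-0.21, limma adjusted p = 0.116) and the desaturases Fads1 (-0.13) and Fads2 (0.08) did not pass; Scd2 passed in 2 of 33 alternative settings.

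Gpam, the acyltransferase that opens glycerolipid synthesis, was higher in males by 0.25 ± 0.08 (limma adjusted p = 0.0312) and missed the threshold without any 1 of 10 of the 24 pools (adjusted p up to 0.0614). In all, 4 genes were higher (Idi1, Me1, Acss2 and Aacs) and 2 lower (Elovl6 and Scd1) in males with no overlap between 12 and 12 pools, a pattern seen upward in 1.04% and downward in 0.934% of all features.

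**Figure D2:**
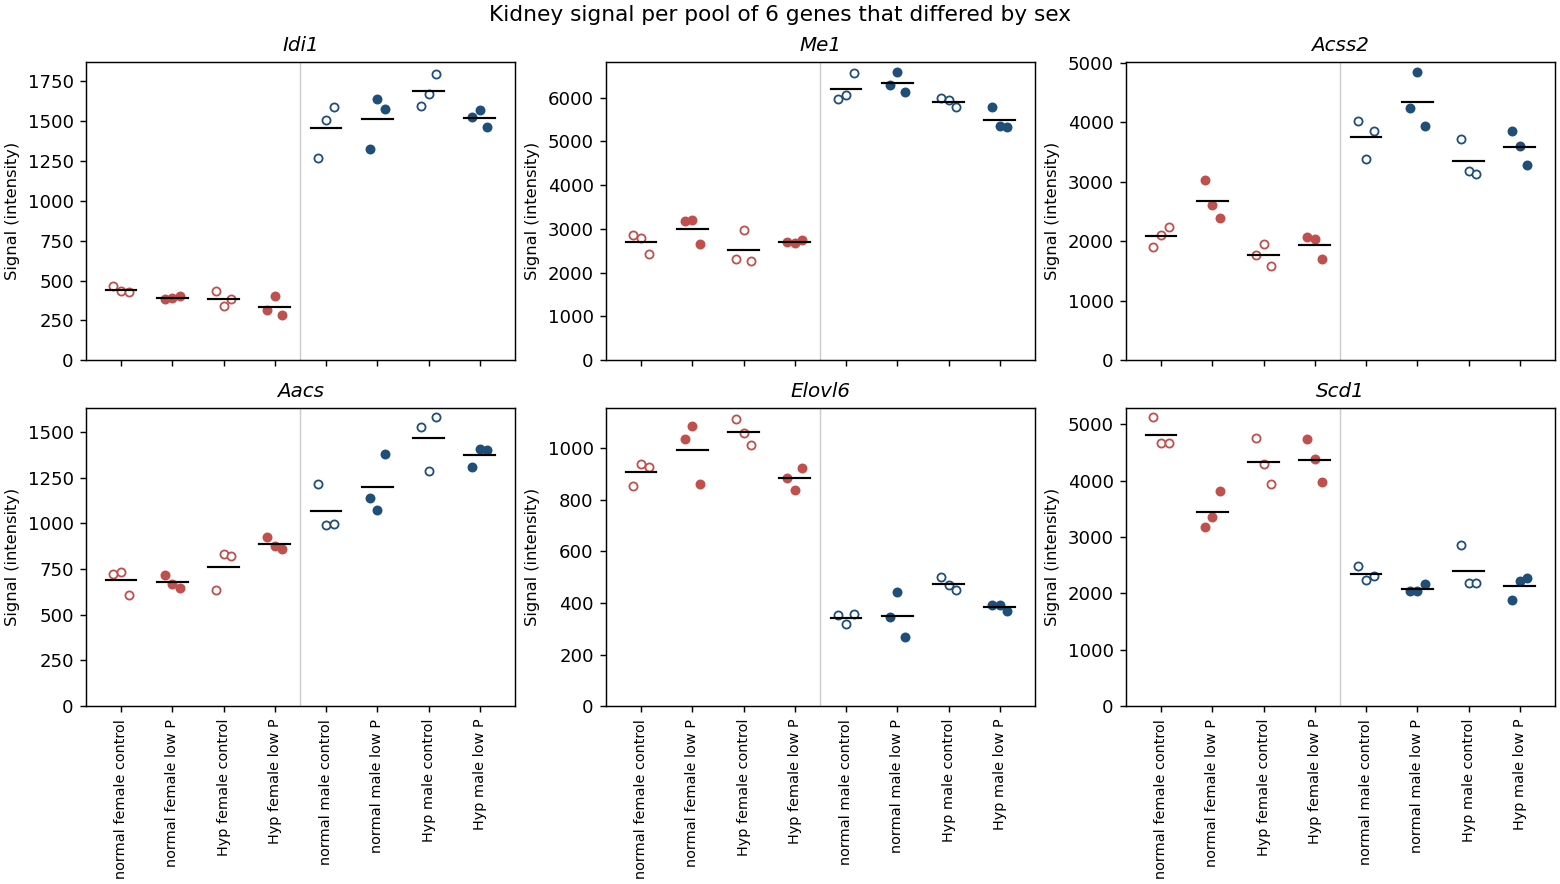
Signal intensity (y axes, from 0) of each of the 24 pools for 6 genes, by group (x axis); red points are female and blue male pools, open points the control and filled points the low phosphate diet (low P), and bars the means of 3 pools. For Idi1 every male pool lies at 1272 or above and every female pool at 466 or below, and for Elovl6 the order is the reverse (at most 499.5 in males, at least 839.8 in females).

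The low phosphate diet lowered 3 late genes of sterol synthesis and raised Gpam. Of the 31 genes, 3 fell (9.68%) and 1 rose (3.23%), while 0.36% of all features fell and 0.419% rose; the median of the 31 was -0.05, against 0.01 for all features. Msmo1, the methylsterol oxidase that starts removal of the C4 methyl groups, had signals of 357, 539 and 752.5 on the control diet and 325, 394 and 482.5 on the low phosphate diet as lowest, median and highest of 12 pools. The ranges overlapped, and the difference was -0.47 ± 0.10, 1.38-fold lower (limma adjusted p = 0.0187). In normal males the 3 control pools read 688, 651 and 732.5 and the 3 low phosphate pools 397.5, 349.8 and 432, and in all 4 combinations of genotype and sex the mean was lower on the low phosphate diet (-0.82 in normal males, -0.33 in normal females, -0.35 in Hyp males and -0.38 in Hyp females). Msmo1 missed the threshold with arrays shifted to a common median and with no filter on dim probe sets (adjusted p up to 0.0636).

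Nsdhl, which acts with Msmo1 in C4 demethylation, had signals of 1206, 1639 and 2033 on the control diet and 1109.9, 1313 and 1621 on the low phosphate diet as lowest, median and highest. It fell by 0.31 on the log2 scale (-0.31 ± 0.06, 1.24-fold, limma adjusted p = 0.00616), and in 3 of the 4 combinations of genotype and sex the 3 low phosphate pools lay below the 3 control pools. In normal males the control pools read 1922, 1959.6 and 2033 and the low phosphate pools 1315, 1621 and 1285; Hyp females gave the smallest difference (-0.13). Ebp, the isomerase that moves the sterol ring's double bond, had signals of 2270.1, 2452 and 3169 on the control diet and 1827, 2069.6 and 2390.5 on the low phosphate diet. Its difference was -0.27 ± 0.05 (1.21-fold lower, limma adjusted p = 0.00945), and in each of the 4 combinations all 3 low phosphate pools lay below all 3 control pools. Each of these 3 genes had 1 probe set above the filter. Msmo1 lacked overlap between the diets in 2 of the 4 combinations, and Acly, which did not pass for diet, in 3. How often all features gave such counts was not determined.

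Gpam rose on the low phosphate diet by 0.35 ± 0.08 (1.28-fold, limma adjusted p = 0.0319). Its signal was 1374, 1782 and 2124 on the control diet and 1899.6, 2046 and 3041 on the low phosphate diet as lowest, median and highest, and its second probe set gave 0.32. The mean was higher in all 4 combinations of genotype and sex, from 0.22 in normal females to 0.43 in Hyp females. The call was lost without any 1 of 13 of the 24 pools (adjusted p up to 0.0693).

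**Figure D3:**
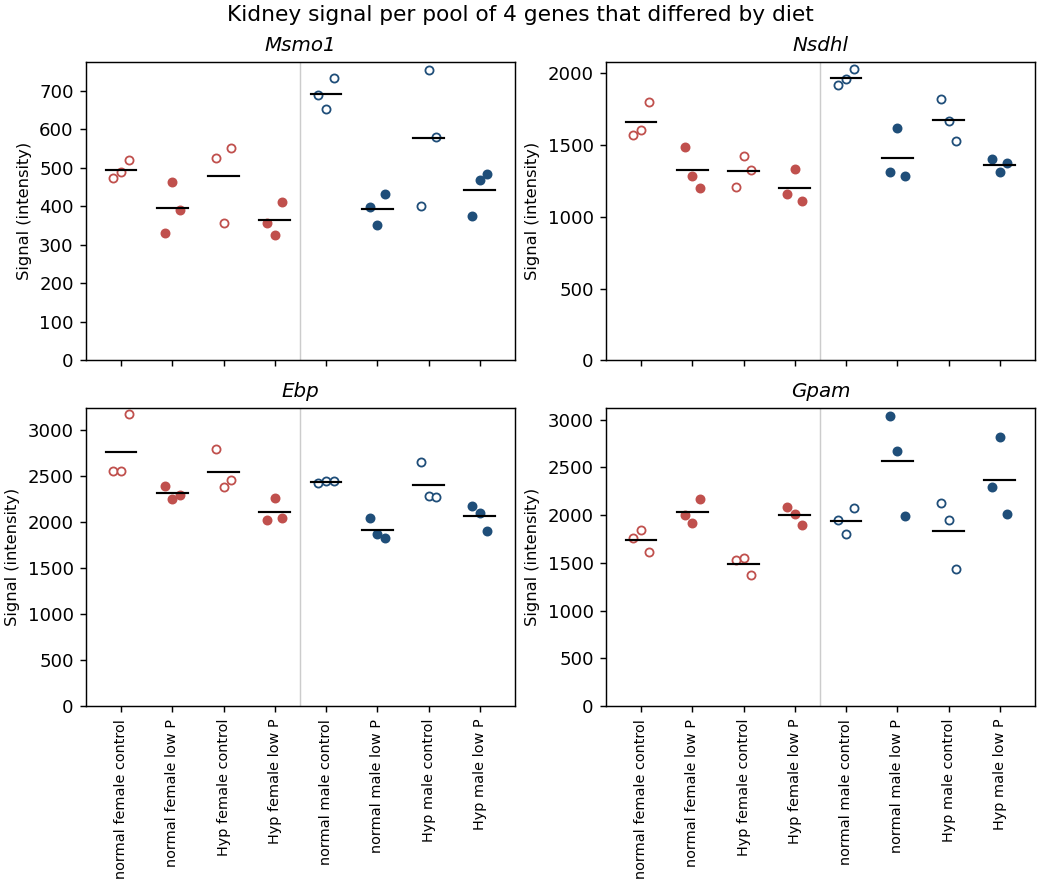
Signal intensity (y axes, from 0) of each of the 24 pools for the 4 genes that differed by diet, drawn by group (x axis) with red for female and blue for male pools, open points for the control and filled points for the low phosphate diet (low P), and bars for means of 3 pools. Ebp is the gene whose low phosphate pools lie below the control pools in all 4 pairs of groups; Gpam runs the other way, up to 3041 in a normal male pool.

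The other sterol genes did not pass for diet. Of the 10 genes from squalene to cholesterol, 6 were lower and 4 higher on the low phosphate diet (median -0.09). Fdft1 gave 0.20, Sqle 0.15, Dhcr7 0.09 and Sc5d 0.03, while Lss and Hsd17b7 gave -0.13 and Cyp51 -0.05. Of the isoprenoid steps, Pmvk gave 0.21 and Mvd 0.17. Insig1 gave -0.40 ± 0.11 (limma adjusted p = 0.11) and passed in 1 of 33 alternative settings, without replicate 1 of the Hyp females on the control diet. In normal males its signals were 414.5, 479 and 450.1 on the control diet and 281, 252 and 230.0 on low phosphate. In Hyp males they were 359.8, 391 and 338 against 254, 223 and 285.5. In both male pairs the diets did not overlap, whereas in females they did. Its difference was -0.67 in males and -0.14 in females, and the diet by sex test gave -0.53 ± 0.21 (limma adjusted p = 0.907). All 10 genes from squalene to cholesterol had a negative diet by sex difference (median -0.19, against -0.02 over all features), and none passed that test. Of the 31 genes 23 were negative (median -0.07), as were 9921 of all 18633 features. For the 10 genes the median was -0.20 for diet in males and 0.06 in females. These genes were read in the same pools and their signs are not independent. Fdps gave -0.29 ± 0.10 (limma adjusted p = 0.301), Srebf1 -0.14 and Srebf2 0.15. The initial synthase, Hmgcs1, gave 0.00 (95% interval -0.16 to 0.17), and Idi1 -0.12.

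In the fatty acid branch no gene but Gpam passed for diet. Scd1 gave -0.20 ± 0.06 (limma adjusted p = 0.163), Acly -0.17 ± 0.05 (0.234) and Acss2 0.20 ± 0.06 (0.219). Fasn gave 0.04 (95% interval -0.10 to 0.17), Acaca -0.02 and Elovl6 -0.11.

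Split by genotype, Nsdhl was the 1 gene that fell with diet in normal pools (-0.41 ± 0.08, limma adjusted p = 0.0184), where 0.279% of all features fell, and the call was lost without any 1 of 5 single pools. In Hyp pools limma called none of the 31, and 0.15% of all features passed in either direction; at an unadjusted p under 0.05 there were 7 of the 31 and 5.97% of all features. In males Nsdhl was again the 1 gene that fell (-0.39 ± 0.08, limma adjusted p = 0.031), where 0.172% of features fell, and this call was lost without any 1 of 10 single pools. In females limma called none and 0.247% of features passed, with 9 of the 31 and 7.58% of features at an unadjusted p under 0.05. The genotype by diet test itself, by limma, called none of the 31 and 0.0161% of features. At an unadjusted p under 0.05 it gave 2 of the 31, Elovl6 and Scd1, a share near the 5.37% of all features. For diet by sex the test called none of the 31 and 0% of all features, and at an unadjusted p under 0.05 it gave 1 gene, Insig1, and 5.33% of all features.

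Genotype moved 2 of the 31 genes, in opposite directions, both among the genes that supply substrates of fatty acid synthesis. Aacs was higher in Hyp by 0.30 ± 0.06 (1.23-fold, limma adjusted p = 0.0122), and Acss2 was lower by -0.28 ± 0.06 (1.22-fold lower, limma adjusted p = 0.0158). These are 3.23% of the 31 genes each way, while 1.11% of all features were higher and 0.945% lower in Hyp. On the control diet Aacs signals were 1217, 992 and 999 in normal males against 1526, 1286 and 1583 in Hyp males. In females on the low phosphate diet they were 718, 671 and 647 in normal against 925, 875 and 862 in Hyp pools. The genotypes did not overlap in those 2 of the 4 combinations of sex and diet. Nsdhl, Insig1, Acaca and Elovl6 also lacked overlap in 2 of the 4 but did not pass for genotype. How often all features gave such counts was not determined. A second Aacs probe set gave 0.25 and did not pass. For Acss2 the females on low phosphate read 3021.5, 2615 and 2393 in normal and 2078, 2045 and 1704 in Hyp pools, and the males on that diet 4242, 4848 and 3935 against 3859, 3607 and 3287. Those 2 combinations did not overlap either. The second Acss2 probe set gave -0.23 and did not pass, and a dim one on the 430B array gave 0.16.

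The other genes did not pass for genotype. Of the 31 differences 23 were negative, with a median of -0.08, while 9434 of all 18633 features were negative, with a median of 0.00. The elongases and desaturases gave 4 positive differences of 6 (median 0.07). On the control diet alone 23 of the 31 genes were negative (median -0.13), as were 10588 of all features (median -0.03). On the low phosphate diet alone 18 of the 31 genes were negative (median -0.01), as were 8268 of all features (median 0.03). The genes were read in the same pools and their signs are not independent. Insig1 gave -0.29 ± 0.11 (limma adjusted p = 0.254), Acaca -0.24 ± 0.10 (0.349) and Nsdhl -0.19 ± 0.06 (0.111). Scd2 (0.22) and Elovl6 (0.17) were the largest positive differences after Aacs. On the control diet alone limma called none of the 31 for genotype and 0.665% of features, with 7 of the 31 and 8.25% of features at an unadjusted p under 0.05. On the low phosphate diet limma again called none of them and 0.789% of features, with 7 of the 31 and 8.99% of features at an unadjusted p under 0.05; Acss2 there gave -0.37 ± 0.09 (adjusted p = 0.0569). The genotype by sex test, by limma, called none of the 31 and 0.0805% of features, and at an unadjusted p under 0.05 it gave 3 of the 31 (Idi1, Srebf1 and Elovl6) and 6.47% of features. The comparisons within a sex, diet or genotype share pools with the main comparisons and are not independent of them.

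**Figure D4:**
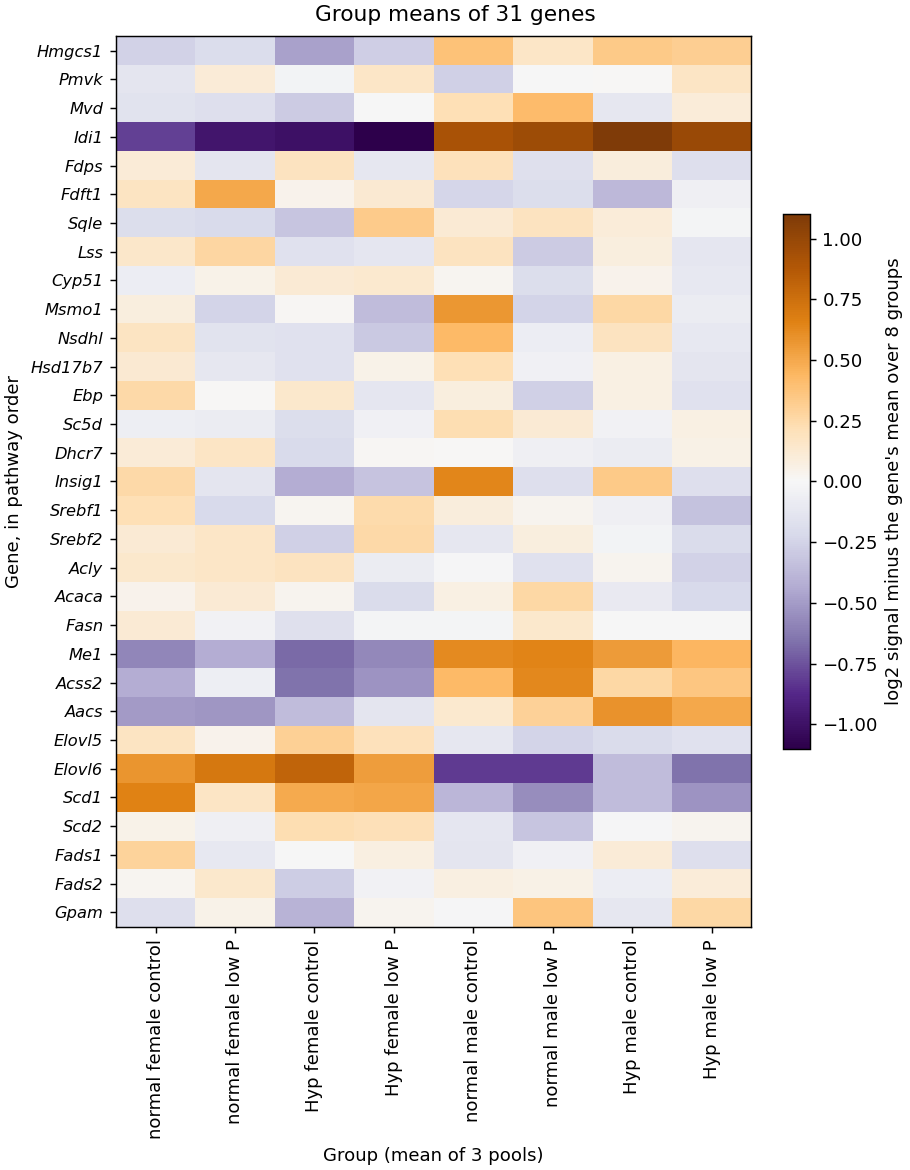
Mean log2 signal of 3 pools in each of 8 groups (x axis) for the 31 tested genes in pathway order (y axis), as the difference from the gene's mean over the groups (colour, orange higher and purple lower). Idi1, Me1, Acss2 and Aacs change colour from the female (left) to the male groups (right), Elovl6 and Scd1 change the opposite way, and Msmo1 is highest in normal males on the control diet.

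Further genes of these pathways were taken from lists by function. Of 51 tested, 22 passed for sex (43.1%), 1 for diet (1.96%) and 5 for genotype (9.8%), while 16%, 0.778% and 2.05% of all features passed, so calls for sex were the most frequent in the lists and over the whole array alike. Of 8 other sterol genes 5 were tested and 3 were higher in males: Lbr, a sterol reductase of the nuclear membrane (0.58), Dhdds, which makes dolichol precursors (0.30), and Erg28 (0.20). None of the 5 passed for diet, and Lbr was lower in Hyp (-0.30). Of 11 genes of SREBP processing and sterol uptake 8 were tested; Scap, the SREBP escort protein, was higher in males (0.37), and Mylip (-0.41), Stard4 (-0.33) and Rnf139 (-0.19) were lower. Of 11 sterol handling genes 7 were tested; Apoe, the lipoprotein component (-1.53), and Abca1, the cholesterol exporter (-0.55), were lower in males and Lpcat3 was higher (0.24), while Apoe was higher in Hyp (0.41) and after low phosphate feeding (0.41). Of 13 further genes of chain extension and desaturation 9 were tested; 3 were higher in males, among them Hacd2 (0.70) and Fads3 (0.31), 2 were lower, Elovl2, an elongase of long polyunsaturated chains (-1.64), and Hacd1 (-0.30), and none passed for diet or genotype. Of 10 genes of NADPH and citrate supply 9 were tested; the pentose phosphate enzymes Pgd (0.35) and Taldo1 (0.33) were higher in males, and Aldoc was lower in males (-0.43) and higher in Hyp (0.45). All 13 lipogenic regulators and glycerolipid genes were tested; 2 were higher in males, among them Mlxipl, a glucose-sensing factor (0.48), 2 were lower, Fabp5 (-0.66) and Pnpla3 (-0.51), and 2 were lower in Hyp, among them Dgat2 (-0.28).

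Markers of other tissue and of tubule segments moved with sex, diet and genotype. Summed signals are over all markers of a list that were on the arrays, above the filter or not. These were 10 of 12 for adipocytes and 5 of 6 for liver. Of 12 adipocyte markers 5 were above the filter; Adipoq (-0.63), Retn (-0.52) and Fabp4 (-0.37) were lower in males and Car3 higher (0.48), while summed signals ran from 3012 to 5655 in females and from 2781 to 5461 in males, and Cidec, Cidea, Lep, Plin4 and Ucp1 were below the filter. The 4 markers of the straight proximal tubule summed to 6014 to 8564 in females and 15557 to 27425 in males; Slc7a13 (5.82) and Cyp7b1 (5.54) were higher in males and Slc22a19 (-0.95) and Slc5a1 (-0.38) lower. Of 6 liver markers 3 were above the filter, and Ttr (-1.23) and Alb (-0.78) fell on the low phosphate diet, with summed signals of 4058 to 32316 on the control and 2219 to 26222 on the low phosphate diet; Apoa1 and Cyp7a1 were below the filter. Of 5 proximal tubule markers, Slc34a1 (-0.30), Slc5a2 (-0.64) and Slc22a6 (-0.23) were lower in Hyp, with summed signals of 30779 to 40337 in Hyp and 38691 to 45628 in normal pools. On the low phosphate diet Slc5a2 rose (0.30) and Slc22a6 fell (-0.23). In males Slc22a6 (1.23) and Slc34a1 (0.24) were higher and Cubn (-0.52) and Lrp2 (-0.28) lower, with sums of 34321 to 45446 in males and 30779 to 45628 in females. The liver marker Ttr was higher (0.95) and Alb lower (-0.52) in males. By genotype, the liver markers Ttr (3.07) and Apob (0.48) were higher in Hyp, and Alb did not pass. Summed liver signals were 12768 to 32316 in Hyp and 2219 to 9093 in normal pools. Ttr alone had a mean of 19820 in Hyp and 2961 in normal pools, against 368 and 289 for Alb. Of the 5 adipocyte markers above the filter only Car3 passed, and it was lower in Hyp (-1.45). Summed adipocyte signals were 2781 to 4367 in Hyp and 3853 to 5655 in normal pools. Mean Fabp4 (1603 against 1494) and Adipoq (264 against 239) signals were higher in Hyp. Mean Retn was lower (278 against 302). The straight tubule markers Cyp7b1 (0.67), Slc22a19 (0.39) and Slc5a1 (0.35) were higher in Hyp. Markers of the distal convoluted tubule, Slc12a3 (-0.29) and Pvalb (-0.30), and of podocytes, Podxl (-0.26) and Nphs1 (-0.23), were lower in males, as were Atp6v1b1 of the collecting duct (-0.32), Pecam1 of endothelium (-0.29), Lyz2 of leukocytes (-0.36) and Cela1 of the pancreas list (-0.25). By genotype Slc12a3 (0.50) and Slc4a1 of the collecting duct (0.42) were higher and Pvalb (-0.31) lower in Hyp, and Cela1 rose on the low phosphate diet (0.38). None of the markers of adrenal cortex (3 above the filter), adrenal medulla, thick limb, muscle or red blood cells passed for any of the 3 factors. The part of these markers in the differences of the synthesis genes was not tested.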

How the data were processed

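Each of the 48 arrays has a deposited table of signal intensity, 1 value a probe set. The authors' software was GCOS 1.2, per the submitters' processing notes; the algorithm and scaling target are not stated in the sources used here. The authors had scaled the intensity, since 100 probe sets shared by both array types had a mean of 1200 on every array (2% trimmed from either end). Signals were floored at 1 and log2-transformed. Probe sets over the median signal of their array in 3 or more of 24 arrays were kept, with 1 kept probe set a gene by the highest mean log2 signal. Models with 8 group means were fitted per array type with limma 3.58.1 in R 4.3.3, and p-values were adjusted together (Benjamini-Hochberg). The fit was tested on simulated data. Symbols came from the platform's annotation, updated by Entrez identifier. The members and lists were chosen with earlier results of these data known. All 32 members are named, and from each further list up to 4 genes past the threshold in a main effect by smallest adjusted p, with Xist, Slc34a1, Umod and Phex as checks. The number of arrays limits the precision. Alternatives were other scalings (common median, quantile), a pseudocount of 32, no filter or a filter of 12 arrays, the 430A array first, the mean of kept probe sets, adjustment within each array type, the replicate number as a block, and each pool left out in turn.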

Additional observations from a re-analysis of the deposited data

How the results depend on the processing

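Over 660 alternatives of 20 single values, 609 kept their direction and their side of the threshold, 51 kept the direction but missed the threshold and 0 reversed. The members called for sex ranged from 12 to 15 and those for genotype stayed at 2; for diet, no filter gave 2 in place of 4, and with single pools left out the count ranged from 3 to 5, with Insig1 as the fifth. In normal pools the 1 call for diet became 2 with quantile normalization and 3 with adjustment within each array type, and ranged from 0 to 2 with single pools left out. In males it became 0 with arrays shifted to a common median or no filter and 2 with a filter of 12 arrays or adjustment within each array type, and ranged from 0 to 2 with single pools left out. For genotype on the low phosphate diet, Acss2 made the count 1 in place of 0 with arrays shifted to a common median, the pseudocount of 32, the filter of 12 arrays, adjustment within each array type and the replicate number as a block. For genotype on the control diet the count was 0, and 0 to 1 with single pools left out. Gpam also missed the threshold for diet with no filter and with the mean of kept probe sets (adjusted p up to 0.0801), and for sex with these and quantile normalization (up to 0.112). Pools of 1 replicate number deviated together little (84 pairs, median r = 0.0283, -0.0504 to 0.0876). The median for different numbers was -0.0143. It is not an independent comparison, since deviations from a group mean sum to 0 over the 3 pools of the group. The numbers were not taken as a pairing. With the number as a block, calls among members were 4 for diet, 2 for genotype and 14 for sex, and the block changed no other call named here. Over all features the block raised the calls. They were 102 higher and 82 lower for diet in place of 78 and 67, 224 and 220 for genotype in place of 206 and 176, and 1229 and 2062 for sex in place of 1133 and 1839.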

Other observations

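Within groups, pairs of members ran both ways. Over 24 pools, as deviations from the group mean, the 105 pairs of sterol and isoprenoid genes had a median Pearson r of 0.01 (-0.62 to 0.67), the 78 pairs of the fatty acid branch 0.03 (-0.42 to 0.59), and the 195 pairs between the branches -0.04 (-0.64 to 0.72). These values are a description, since all pairs share the same pools and arrays. Nsdhl and Acss2 had the highest value (0.72), followed by Mvd and Dhcr7 (0.67) and Ebp and Sc5d (0.61), and the lowest were Msmo1 and Fads1 (-0.64) and Msmo1 and Acss2 (-0.63).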
